A study of Caenorhabditis elegans with 5 samples.

Results

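LIN-42 peaks near the ends of chromosomes were taken as all peaks of the 3 deposited ChIP-seq lists that lay wholly within 500 kb of the first or last base of the 6 nuclear chromosomes of *Caenorhabditis elegans* (ce10). These 12 windows held 350 of 4654 peaks, namely 83 of 946 in LIN-42::GFP replicate 1, 183 of 2580 in LIN-42::GFP replicate 2 and 84 of 1128 in endogenous LIN-42. The choice used position alone, and no measured value entered it.

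The study mapped where LIN-42 sits on chromatin in whole larvae. All 5 samples, 3 ChIP libraries and 2 inputs, carried the strain label HML214 and the tag label GFP, and the worms were grown at 20 °C on OP50 bacteria and collected at the late L4 stage. LIN-42::GFP replicates 1 and 2 were precipitated with anti GFP (abcam 290), and the endogenous LIN-42 library with KEA/11 Rabbit 2 from PrimmBiotech. Per the methods, the antibody against LIN-42 was raised with a peptide that occurs in the predicted A and B isoforms of LIN-42. The 2 GFP libraries came from separate extracts, while the endogenous library had no replicate. A further limit of the model is that the protein under study is a functional GFP-tagged transgene, that the strain label is the same for the antibody against LIN-42, and that the header of the endogenous list names no control library.

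LIN-42 is the worm counterpart of PERIOD, the repressor protein of the circadian clocks of flies and mammals, and it acts in the heterochronic pathway that times larval development. Telomeres are the repeats that cap linear chromosomes (TTAGGC in this worm), and the subtelomeric sequence beside them is rich in repeats. The right end of chromosome I carries the tandem array of ribosomal RNA genes. Worm chromosomes are holocentric, so that left and right are conventions of the map with no short and long arm.

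A tag is a sequenced read, and a single tag was kept per position, which left the GFP replicates 1 and 2 with 38236 and 43991 tags and the endogenous library with 122089. Between 95% and 99% of the aligned tags were discarded as redundant. The weakest peaks of the GFP lists hold 4 tags and those of the endogenous list 5, so that weaker binding would go unseen. Fold enrichment is the pile of tags at the summit over the background that MACS estimated. Folds were compared only within a list. The methods describe calling against input for all libraries, while the endogenous list names no control, and which background its folds rest on cannot be told from the list. Peaks of a list share 1 library and are not replicates, so that intervals (95%, Wilson for shares, exact Poisson for densities) cover counting error only, and end peaks were set beside the other peaks of their own list with no test.

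The outermost bases of the left ends carried the same peak in every library. All 6 left ends held a peak that began within 12 bp of the first base of the chromosome, in all 3 lists, which is 18 of 18 possible peaks. At the left end of chromosome I GFP replicate 1 counted 40 tags, GFP replicate 2 counted 117 and endogenous LIN-42 counted 78. At the left end of X the tags were 25, 60 and 45 in the same order of libraries. These are the strongest of the 6 in each list, and replicate 2 was the highest of the 3 libraries at both.

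The left end of chromosome II followed with 17, 39 and 30 tags in the same order. Chromosome V had 11, 24 and 21 tags. Chromosome III had 9, 18 and 13 tags, and chromosome IV had 6, 27 and 15. The order of the ends was therefore close to the same in the 3 libraries, with I, X and II leading in that order in each, while the weaker III, IV and V changed places. On the log2 scale the tags of the 6 ends had a Pearson r of 0.909 between the GFP replicates (Spearman rho 0.829), 0.967 between GFP replicate 1 and endogenous LIN-42 (rho 0.943) and 0.975 between GFP replicate 2 and endogenous LIN-42 (rho 0.943). These are descriptions over n = 6 ends, and the ends share their library and whatever repeats they have in common. Tags also moved with the width of the peak (r = 0.868, 0.802 and 0.808 in the 3 lists).

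**Figure D1:**
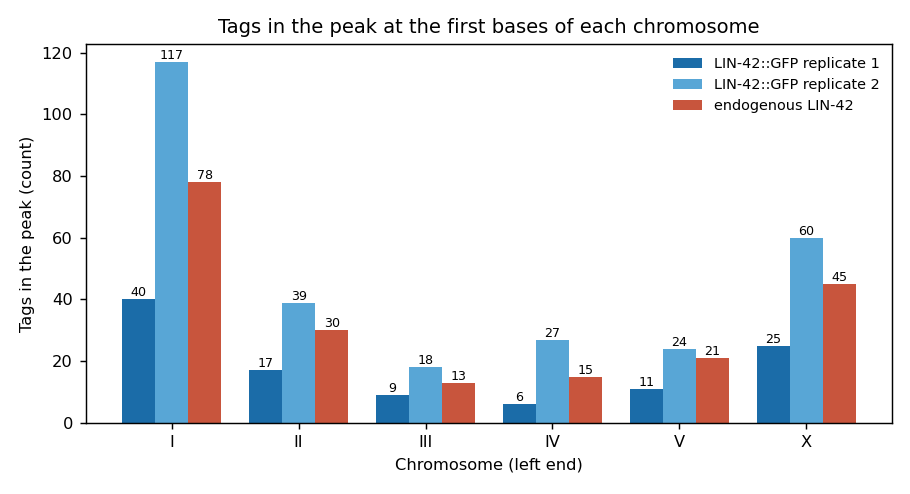
Tags (count, vertical axis) in the peak that begins within 12 bp of the first base of each of the 6 chromosomes (horizontal axis), as a bar for each of the 3 libraries with its count above it. Chromosome I is highest in every library (40, 117 and 78 tags) and X second (25, 60 and 45). There are no error bars because each bar is a single peak of a single library.

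The summits of these peaks lay close together as well. At the left end of chromosome II the 3 summits fell between bases 88 and 97, a range of 9 bp. The range was 13 bp on V, 16 bp on III, 17 bp on IV and 32 bp on X. On III and IV the summit was the middle of the peak in every list. Peaks of like start and width then have like summits, so the ranges on III and IV add no further agreement. Chromosome I was the exception with 190 bp, its summits lying between bases 156 and 346. In all, the 6 peaks took 108 tags of the GFP replicate 1 library, 285 of the second and 202 of the endogenous library, which is 28.2, 64.8 and 16.5 of every 10000 tags of the library.

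Tags and fold did not rank these peaks alike. In LIN-42::GFP replicate 2 their folds ran from 219.71 on II to 909.28 on I, with 805.95 on X, 454.64 on V, 389.69 on IV and 371.98 on III. Of all the peaks of that list, 98.5% to 100% had a lower fold. In LIN-42::GFP replicate 1 the folds were only 64.88 to 88.81, and between 26.6% and 37.5% of the list lay below them, although 49.3% to 96.8% of the list had fewer tags.

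Among the other replicate 1 peaks with 6 to 40 tags the median fold was 145.6 (448 peaks), against 72.8 for the 6 terminal peaks. In replicate 2 the same reading gave 61.9 for 140 other peaks of 18 to 117 tags and 422 for the terminal ones. The 2 replicates thus placed the same 6 peaks on opposite sides of the peaks of like tag number. In endogenous LIN-42 the 6 folds spread widely, from 32.99 on I to 93.98 on IV, and the end with most tags had the lowest fold. The tags of the input at these places are not part of the lists, and their part in the difference between the replicates was not tested. The 2 GFP lists also had different controls, with 3320847 tags after filtering for replicate 1 and 1697123 for replicate 2. The part of these controls in the difference was not tested either.

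MACS gave each of these peaks a false discovery rate of 0% in replicate 1. This did not set them apart, since the other end peaks of that list, down to 4 tags, also had 0%. None of its 946 peaks had a rate over 5%. In replicate 2 the rate of the terminal peaks was 0% on I, 1.79% on V, 2.33% on III, 3.23% on IV and 3.57% on II. It was 50% on X, although X had the second highest fold of the 6. A high rate did not mark a low MACS score here (the score rises as the MACS p-value falls). On V, III, IV, II and X the scores were 463.88, 505.86, 558.96, 587.07 and 1365.46, the same order as the rates. Chromosome I broke this order, with a score of 2685.26. The X peak had a higher score than 99.9% of the list. Of the 183 end peaks of replicate 2 only 2 had a rate over 5%, beside 18 of all 2580. Beside the terminal peak of X, the other one lay at chrX:112364-114250, with 85 tags, a score of 806.65 and a rate of 11.11%. A limit of 5% thus took out 2 end peaks of high score and no weak one.

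By the closest gene in the annotation of the authors, these peaks sat beside *homt-1* on I, the homolog of an N-terminal protein methyltransferase, *fbxa-6* on III, an F-box gene (F-box proteins recruit substrates to a ubiquitin ligase), and *frm-5.2* on IV, which encodes a FERM domain protein. On II, V and X the closest genes were the non-coding RNA genes cTel52S.1, cTel3X.2 and cTel7X.2. Of the 41 end peaks shared by the GFP replicates, 3 had a gene with the cTel prefix closest, and all 3 were these. Such genes were not counted over all 395 shared peaks. The nearest named gene says only where the peak lies.

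The right ends had no counterpart. None of the 3 lists held a peak wholly within the last 1000 bp of any of the 6 right ends. The nearest came 879 bp from the end of IV in LIN-42::GFP replicate 2 (6 tags, fold 34.58), 1173 bp from the end of IV in endogenous LIN-42 (8 tags, fold 11.07) and 1174 bp from the end of I in LIN-42::GFP replicate 1 (12 tags, fold 10.98). On X the nearest peaks were far, at 184736, 96838 and 138744 bp from the right end in GFP replicate 1, GFP replicate 2 and endogenous LIN-42.

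On II the nearest peaks stood 35445 and 35454 bp from the right end in replicate 1 and endogenous LIN-42, where an intron of *Y46E12BL.2* held 13, 15 and 15 tags in the 3 libraries, and replicate 2 had a further peak of 5 tags at 18822 bp. On V the 3 lists had the same nearest peak, at 13046, 13020 and 13056 bp, in an intron of *ttll-9*, a gene of the tubulin tyrosine ligase-like family. With 46, 53 and 45 tags it was the right-end peak with most tags in both GFP lists, and also the one with the highest fold in GFP replicate 1 (340.47) and in endogenous LIN-42 (98.44). On III the lists had no nearest peak in common (11633, 2744 and 185334 bp).

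**Figure D2:**
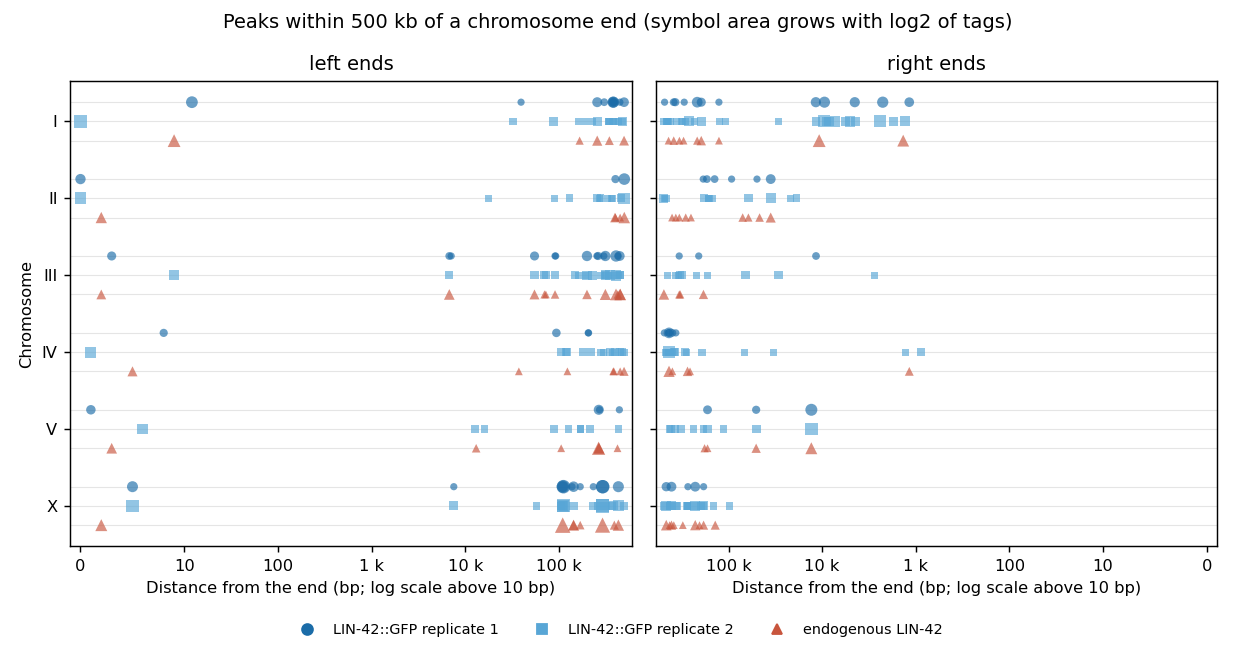
Every end peak by its distance from the end (horizontal axis in bp, logarithmic above 10 bp) on the left and right ends of the 6 chromosomes (rows), with a row and symbol for each of the 3 libraries and symbol area growing with the log2 of its tags. All 18 rows of left ends start with a peak within 12 bp of the end, whereas no right end has a peak closer than 879 bp.

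At the right end of chromosome I the peaks followed the ribosomal RNA array. Of the 20 peaks of LIN-42::GFP replicate 2 in the last 10 kb of all ends, 9 were here, as were all 3 right-end peaks of replicate 1 in that zone. Some peaks recurred at a spacing close to 7197 bp, in 2 of the 10 pairs that the 5 replicate 1 peaks there form and in 3 of the 55 pairs of the 11 replicate 2 peaks. In replicate 1, peaks of 16 and 16 tags began 7196 bp apart, and peaks of 27 and 29 tags 7197 bp apart. In replicate 2, peaks of 43 and 43 tags began 7197 bp apart, with an equal width of 1089 bp, peaks of 12 and 13 tags 7194 bp apart, and peaks of 7 and 8 tags 7187 bp apart. The 2 endogenous peaks began 10058 bp apart and did not share this spacing.

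Folds there ran from 7.6 to 11.59 for the 5 peaks of replicate 1 and from 11.26 to 34.9 for the 11 peaks of replicate 2, and were 6.93 and 5.89 for the 2 peaks of endogenous LIN-42, which held 81 and 42 tags. All lay below the median of their list (97.1, 82.7 and 35.1). The peak at chrI:15060285-15061660 with 81 tags was the right-end peak with most tags in the endogenous list. The closest genes were the non-coding RNA genes F31C3.13 to F31C3.16. The authors selected uniquely aligned reads before calling peaks. Whether the paired counts come from reads that fit more than 1 repeat unit was not tested.

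The last 10 kb held few other peaks. At chrIII:6731-6862, in an intron of *npr-30*, a gene of the neuropeptide receptor family, all 3 lists had a peak, with 5 and 6 tags in GFP replicates 1 and 2 and 21 in endogenous LIN-42. At chrX:7489-7752 (*CE7X_3.2*) the GFP replicates had 4 and 8 tags and endogenous LIN-42 had no peak. At chrIV:17492356-17492620, on the right, GFP replicate 2 had 4 tags and endogenous LIN-42 had 8. Of these 3 places only *npr-30* was thus found in all libraries. Replicate 1 alone had 4 tags at chrIII:7056-7162, and replicate 2 alone had 4 tags at chrIII:13780846-13780956 and 6 at chrIV:17492702-17492914.

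Density was raised over this short zone. The last 10 kb held 100 peaks per Mb (51.7 to 175, 12 peaks) in LIN-42::GFP replicate 1, 167 (102 to 257, 20 peaks) in replicate 2 and 75 (34.3 to 142, 9 peaks) in endogenous LIN-42. Each count holds the 6 terminal left peaks, and the right end of chromosome I adds 3, 9 and 1 peaks in the same order. Together these are most of the peaks of the zone, and no density was computed without them. From 10 to 50 kb the densities were 14.6, 27.1 and 12.5 per Mb. Outside the end windows they were 9.15, 25.4 and 11.1 per Mb. The intervals from 10 to 50 kb (5.86 to 30, 14.4 to 46.3 and 4.59 to 27.2) include these, and those of the last 10 kb lie above them.

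Beyond 10 kb the windows had 12.1 peaks per Mb (9.43 to 15.2) in replicate 1, 27.7 (23.6 to 32.3) in replicate 2 and 12.8 (10 to 16) in endogenous LIN-42. The intervals of replicate 2 and endogenous LIN-42 include the density of the rest, and that of replicate 1 begins just above it. Outside the windows, from 500 to 1000 kb of an end, densities were 9.83, 26.5 and 14.2 per Mb in the same order. From 1000 to 2000 kb they were 12.5, 30.1 and 15.4, above those of the windows beyond 10 kb in each list. Such densities were thus not particular to the windows. With the last 10 kb included, the windows held 8.77% of the peaks of replicate 1 (7.13 to 10.7), 7.09% of replicate 2 (6.16 to 8.15) and 7.45% of endogenous LIN-42 (6.05 to 9.13), on 5.98% of the genome. Without the right end of chromosome I the share of replicate 2 fell to 6.05%. The peaks of that end were left out while its bases stay in the 5.98%, so a fall was fixed beforehand. The 2 figures are therefore not on a like footing.

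Peaks of the last 10 kb held more tags than the other end peaks. In LIN-42::GFP replicate 1 the lowest, median and highest were 4, 11.5 and 40 tags, beside 4, 5 and 136 for the end peaks farther in. In replicate 2 they were 4, 12.5 and 117, beside 4, 5 and 106. In endogenous LIN-42 they were 8, 21 and 78, beside 5, 7 and 580. The ranges overlapped in each list, and the medians of the last 10 kb were the higher ones in all 3.

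Peaks there were also wider, with medians of 261, 276 and 258 bp in the 3 lists against 176, 122 and 186 bp farther in. Fold went the other way in the GFP lists, with medians of 68.9 against 97.1 in replicate 1 and 34.7 against 82.7 in replicate 2, and the same way as tags in endogenous LIN-42 (57.7 against 39.7). The sides differed in this. In replicate 2 the 8 left peaks of the zone had a median fold of 381 and the 12 right peaks one of 20.8. In replicate 1 these were 76.7 (9 peaks) and 11 (3 peaks), and in endogenous LIN-42 71.4 (7 peaks) and 8.48 (2 peaks).

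**Figure D3:**
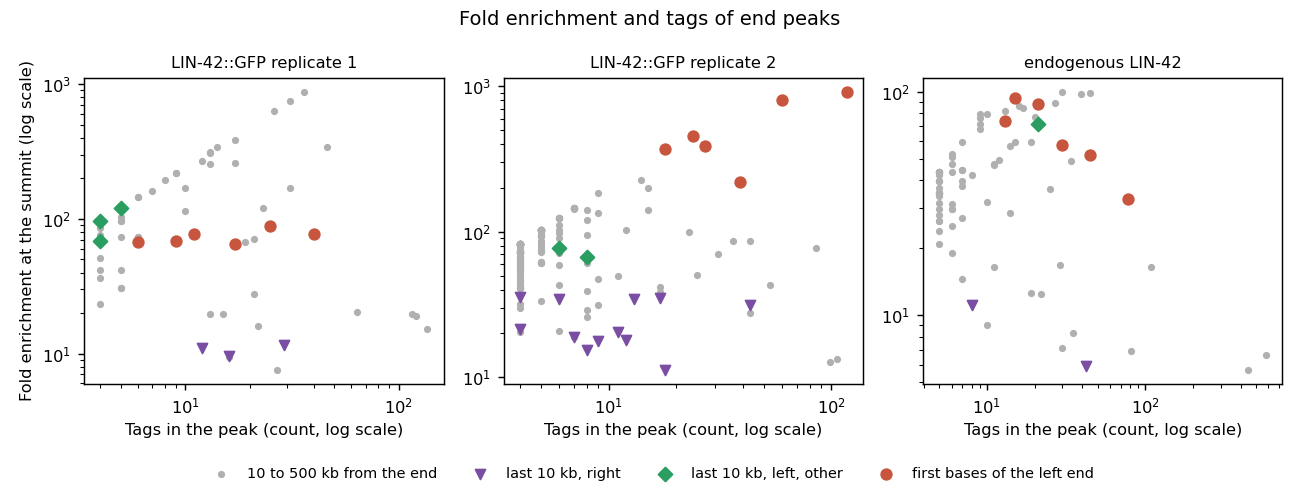
Fold enrichment at the summit against the tags in the peak, both on logarithmic axes, for all end peaks of each of the 3 libraries (panels), with the 6 peaks at the first bases of the left ends, the other left and the right peaks of the last 10 kb, and the peaks 10 to 500 kb from an end in separate symbols. The terminal left peaks stand at the top in LIN-42::GFP replicate 2 (219.71 to 909.28) and in the lower part of the cloud in replicate 1 (64.88 to 88.81). The right peaks of the last 10 kb lie at low folds in each panel.

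Overlap between lists, counted from 1 shared base, was read against that of whole lists. Of the end peaks of LIN-42::GFP replicate 1, 41 of 83 (49.4%, 38.9 to 59.9) overlapped a replicate 2 peak, beside 41.8% of the whole list. In the other direction 42 of 183 replicate 2 end peaks (23%, 17.5 to 29.6) overlapped replicate 1, beside 15.5%. With endogenous LIN-42, 40 of 83 end peaks of replicate 1 (48.2%) overlapped, beside 42.4%, and 44 of 183 of replicate 2 (24%), beside 15.8%. The end peaks were above the share of their whole list in each of these 4 directions, and for replicate 1 the difference was smaller than the counting interval.

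Endogenous end peaks were found in replicate 1 in 38 of 84 cases (45.2%), beside 34.4% of that list, and in replicate 2 in 40 of 84 (47.6%), beside 33.9%. In 31 of 84 (36.9%) they were found in both, beside 26.5%. Of the 41 end peaks shared by the GFP replicates, 33 (80.5%, 66 to 89.8) were in the endogenous list, beside 78.2% of all shared peaks. The endogenous library thus held nearly the same share of the shared peaks at the ends as elsewhere.

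Shares were highest in the last 10 kb. There, 11 of 12 replicate 1 peaks (91.7%, 64.6 to 98.5) were in replicate 2, against 30 of 71 farther in (42.3%, 31.5 to 53.8), which is close to the whole list. Of the replicate 2 peaks, 11 of 20 (55%, 34.2 to 74.2) were in replicate 1, against 31 of 163 (19%). By side these were all 8 left peaks, the terminal ones included, but only 3 of 12 right peaks (25%, 8.89 to 53.2). Among right peaks farther in the share was 17.5%. The replicate 1 peaks did not split in this way, with 8 of 9 left and 3 of 3 right. All 9 endogenous peaks of the zone were in replicate 2 and 8 of 9 in replicate 1, against 41.3% and 40% farther in. Tag number moves with these shares, since 84.5% of replicate 1 peaks of 10 tags or more outside the ends were in replicate 2, but 12.6% of those of 4 or 5 tags.

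Of the replicate 1 end peaks with 10 tags or more, 29 of 34 (85.3%) were in replicate 2, of those with 6 to 9 tags 6 of 10 (60%, 31.3 to 83.2, against 47.6% elsewhere), and of those with 4 or 5 tags 6 of 39 (15.4%). In each of these tag ranges the interval of the end peaks included the share elsewhere. In 2 cases the intervals of ends and rest did not overlap, the only ones over the 3 tag ranges of every direction looked at. These directions were replicate 1 to replicate 2, the reverse, and endogenous LIN-42 to each replicate. Of replicate 2 peaks of 6 to 9 tags, 14 of 38 at the ends (36.8%, 23.4 to 52.7) were in replicate 1, against 17.3% (14.2 to 20.9) of 497 elsewhere. Of endogenous peaks of 5 tags, 6 of 24 at the ends (25%, 12 to 44.9) were in replicate 2, against 7.45% (5.2 to 10.6) of 376 elsewhere, while 3 of 24 (12.5%, 4.34 to 31) were in replicate 1, against 5.32% (3.47 to 8.07). Summits of shared pairs lay a median of 17 bp apart at the ends and 10 bp elsewhere, and 26 of 41 (63.4%) were within 50 bp at the ends, against 77.7%.

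**Figure D4:**
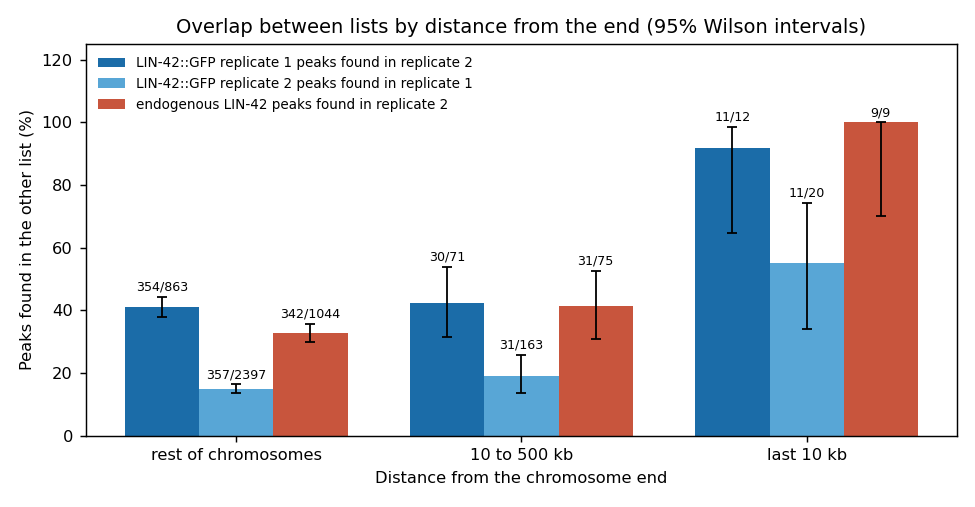
Share of peaks (percent, vertical axis) found in the list named in the legend, for peaks outside the end windows, 10 to 500 kb from an end and in the last 10 kb (horizontal axis). Bars are shares, error bars are 95% Wilson intervals and labels give the counts. The shares at 10 to 500 kb are 42.3%, 19% and 41.3%, beside 41%, 14.9% and 32.8% in the rest, and those of the last 10 kb are higher (91.7%, 55% and 100%). Left and right ends are pooled, and the 55% of replicate 2 joins 8 of 8 left and 3 of 12 right peaks.

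Left and right ends had like numbers of peaks. There were 48 left and 35 right peaks in LIN-42::GFP replicate 1, 91 and 92 in replicate 2 and 44 and 40 in endogenous LIN-42. More peaks lay left than right on 3 of 6 chromosomes in replicate 1, on 2 in replicate 2 and on 3 in endogenous LIN-42. Single ends ranged from 3 to 14 peaks in replicate 1, from 9 to 27 in replicate 2 and from 4 to 12 in endogenous LIN-42, and chromosome I right had the most of any end in replicate 2. Without that end the left share rose from 49.7% to 58.3% in replicate 2 and from 57.8% to 67.6% in replicate 1. The left end of chromosome I was kept, so that a rise was fixed beforehand and says nothing about the sides.

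Median tags were higher on the left in endogenous LIN-42 and differed less in the GFP lists. The lowest, median and highest were 4, 8 and 136 tags left and 4, 5 and 46 right in replicate 1. They were 4, 5 and 117 left and 4, 4.5 and 53 right in replicate 2, a difference within a single tag. In endogenous LIN-42 they were 5, 13 and 580 left and 5, 6 and 81 right. In that list 56.8% of left peaks and 32.5% of right peaks had 10 tags or more, and without chromosome X the medians were 11.5 and 6. Without X the medians of replicate 1 were 6 left and 5 right. In replicate 2, without X, 12.3% of left and 14.9% of right peaks had 10 tags or more, the reverse of the 17.6% and 14.1% with it.

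Median folds of left and right peaks were 97.1 and 91.8 in replicate 1, 82.7 and 70.8 in replicate 2 and 38.8 and 43.9 in endogenous LIN-42, so that the side with the higher fold was not the same in the 3 lists. Overlap did not separate the sides in replicate 1, where 50% of left and 48.6% of right peaks were in replicate 2. For replicate 2 peaks in replicate 1 the shares were 27.5% and 18.5%. Of the shared peaks, 20 of 24 left (83.3%) and 13 of 17 right (76.5%) were in the endogenous list.

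When peaks that touched each other were joined over the 3 lists, the windows held 257 regions, of which 31 (12.1%, 8.63 to 16.6) were in all 3 lists, beside 292 of 3737 (7.81%) in the genome. In the last 10 kb, 7 of 9 left regions were in all 3 lists and 1 of 11 right regions. Beyond 10 kb the sides were alike, with 11 of 119 left and 12 of 118 right. Of the 257 regions, 203 were in a single list, beside 3204 of 3737 in the genome. GFP replicate 2 alone held 131 of these 203, beside 2088 of the 3204 in the genome.

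The 2 regions with most tags among the 31 lay on the left end of X and were broad. The region at chrX:109554-114261 lay beside *elk-2* and *fbxa-221*, the latter an F-box gene. There GFP replicate 1 had 222 tags in 3 peaks, replicate 2 had 139 in 3, and endogenous LIN-42 had 580 in 1. At chrX:291877-295259, beside *dbd-18*, the tags were 235, 205 and 445. These regions held 48.6%, 30.7% and 56.5% of all tags in left-end peaks of the 3 lists. Folds were at most 20.27 in replicate 1 and 6.65 in endogenous LIN-42, in the lowest part of both lists. In replicate 2 the regions differed, with folds of 12.68 and 13.36 beside *dbd-18*. The larger peaks of the other region had 86.6, closest to *elk-2*, and 76.97, closest to *fbxa-221*. These lay on either side of the list median of 82.7.

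Of the narrow regions, 3 had folds among the highest of replicate 1 but not of replicate 2. At chrII:498418-498578, in an intron of *sms-5*, which encodes a sphingomyelin synthase family protein, there were 36, 36 and 34 tags. Its fold of 871 was the highest of all end peaks in replicate 1, beside 86.87 in replicate 2 and 48.77 in endogenous LIN-42. At chrIII:406553-406810, beside *Y55B1BL.1*, the tags were 31, 23 and 39, with folds of 752.25, 99.23 and 97.88. At chrX:430874-431022, at the promoter of *dve-1*, whose homeobox protein takes part in the response to mitochondrial stress, they were 26, 25 and 30, with folds of 630.92 in replicate 1 and 50.51 in replicate 2, where 16.9% of the list lay lower, and the endogenous fold of 99.21 was the highest of all end peaks of that list. The endogenous library, the deepest of the 3, had the most tags at *Y55B1BL.1* and *dve-1* and the fewest at *sms-5*.

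At the promoter of Y116A8C.44 (chrIV:17060729-17061532) there were 21, 31 and 29 tags, in sum as many as at *dve-1*. The other regions of all 3 lists held fewer tags in sum. Those with a well-known gene closest were the *pha-4* promoter at chrV:20756325-20756447, with 8, 8 and 5 tags (PHA-4 is the FoxA factor that specifies the pharynx), and a *pat-4* intron at chrIII:90752-90878, with 4, 5 and 7 tags (PAT-4 is the integrin-linked kinase of muscle attachments). A *frm-1* intron at chrI:14876610-14876746 had 9, 8 and 11 tags, and the promoter of *npr-24*, of the neuropeptide receptor family, had 13, 17 and 17 at chrX:17491866-17492029. The rest lay beside Y48G1BM.9, W05G11.2, F40G9.17, Y50D7A.1, Y116A8C.27, F31D4.10, Y73B3A.8, Y40C7B.4, C53C11.4 and F31A3.3. Of the gene families looked for among the closest genes of the 41 shared peaks, F-box genes accounted for 2 and homeobox genes for 1. Ribosomal RNA by gene name, microRNA, chemoreceptor, nuclear hormone receptor, C-type lectin and zinc finger or bZIP genes accounted for 0. The families were not counted over all 395 shared peaks, so whether the ends differ from them cannot be told.

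Some strong end peaks were not found in all 3 lists. Endogenous LIN-42 alone had neighboring peaks of 35 and 30 tags at chrIII:450022-451037 and chrIII:451110-452085, at folds of 8.31 and 7.09. At chrV:265051-266603 it had 109 tags, with 15 in GFP replicate 1 and no peak in replicate 2. GFP replicate 2 alone had 14 tags at chrI:14806300-14806670, with the highest fold of its right-end peaks (227.32). The exons of *pqn-59* on chromosome I, at chrI:379943-380858 and chrI:380861-381768, had 31 and 23 tags in replicate 1, 4 and 5 in replicate 2 and no endogenous peak. Clustered peaks, those less than 2000 bp from the next peak in their list, made up 23 of 83 end peaks in replicate 1 (27.7%, beside 20.1% of the list), 40 of 183 in replicate 2 (21.9%, beside 17.4%) and 7 of 84 in endogenous LIN-42 (8.33%, beside 16.1%).

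At the border of the windows, the last peak inside was the *sms-5* peak in all 3 lists, and the first outside had 20 tags on IV in replicate 1, 6 on III in replicate 2 and 26 on II in endogenous LIN-42. At the border of the last 10 kb, replicate 1 had 4 tags just inside and 27 just outside, replicate 2 had 9 and 43, and endogenous LIN-42 had 21 and 81. The 3 peaks just outside were all on the ribosomal array.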

How the data were processed

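ChIP-seq was done on 3 libraries, beside 2 inputs that enter only as controls. Per the methods, reads of 76 nucleotides were aligned to ce10 with Bowtie2, uniquely aligned reads were selected, and peaks were called with MACS at a p of 1e-05, library by library; the headers of the lists give version 1.4.2. The deposited tag count of a peak was taken by the authors after removal of duplicates and is not normalized. The deposited score is 10 times the −log10 of the MACS p-value. The deposited fold enrichment is a ratio to the background estimated by the authors' caller, which for the GFP lists may be a genome-wide level and not the input. Only the GFP lists of the authors give a false discovery rate, as a percent (%).

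Starts and ends were taken as 1-based, with the end included. A peak was an end peak if it lay wholly within 500000 bp of an end, and of the last 10 kb if wholly within 10000 bp. Overlap needed 1 bp. Distances, overlaps and clusters were tested on simulated data. Gene names came from the annotation of the authors and, for 36 of 37 names, from RefSeq (WBcel235, names and biotypes only). Named peaks are the nearest to each end, all in the last 10 kb, the 10 regions of all 3 lists with most tags, those with most tags or the highest fold per list and side, and those of fixed gene families. The other regions of all 3 lists, the peaks found in a single list or without replicate 2 or the endogenous library, and those at the border of the windows were named after their values were seen. Members and lists were chosen with earlier results of these data known. No sequences are shown, since no ce10 genome was used here. Alternatives changed the window, the p-value, the false discovery rate, the overlap, clustered peaks, the last zone, the right end of chromosome I and the replicates. Those without the last 10 kb, and counting peaks by their nearer edge, were chosen after seeing the data. Scripts ran in Python 3.11.15 with SciPy 1.17.1 for intervals, pandas 2.3.3 and NumPy 2.4.6 for tables and Matplotlib 3.10.9 for plots.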

Additional observations from a re-analysis of the deposited data

How the results depend on the processing

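No paired analysis was possible because the results are counts and medians of peak lists and come from no test. Of 134 values under alternatives, 109 stayed within the main value's interval (shares), within 1.5 times it (medians of a list) or within the SD of the 2 GFP replicates (their means). The 109 include these means with a replicate left out, which lie within that SD whatever the data. The share of replicate 1 end peaks in replicate 2, and the shares by side, stayed within it under all alternatives run. With windows of 250 kb, 2.99% of the genome, the end share was 4.76% in GFP replicate 1, 3.57% in replicate 2, 3.55% in endogenous LIN-42 and 4.16% as the mean of the replicates. With 1000 kb, 12% of the genome, these were 15%, 13.3%, 15% and 14.1%. At a MACS p of 1e-10 or less the endogenous end share was 9.31%, the mean left share of the replicates 61.3% (main 53.8%), the share of shared end peaks in the endogenous list 90.3%, the median tags of the last 10 kb 24 in replicate 2 and 16.5 as the mean of the replicates. Without clustered peaks these last 3 were 91.7%, 24 and 17.5, and the overlap share of the last 10 kb was 100% (7 of 7), as it was in the last 5000 bp (9 of 9), where the mean median was 17 tags. Without the right end of chromosome I the end share of replicate 2 was 6.05%, its left share 58.3%, the mean left share 63% and the mean median of tags 13.5 (main 12). Dropping this end can only lower the end share and raise the left share. Leaving out a replicate gave end shares of 7.09% to 8.77%, left shares of 49.7% to 57.8% and median tags of 11.5 to 12.5. The share in the endogenous list was then 24% to 48.2%, because it covers all end peaks of the replicate that is left and not only shared ones. At 9 to 20 peaks per list in the last 10 kb, and 4 or 5 tags in the weakest peaks, depth limits every comparison there.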
